A study of Mus musculus with 6 samples.

Results

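MHC class I molecules display peptides from inside the cell to CD8+ T cells, and 10 genes of that presentation pathway were followed here out of 55487 genes in the table. They were chosen by name: the heavy chains H2-K1 and H2-D1, the light chain B2m, the peptide loading genes Tap1, Tap2, Tapbp, Erap1, Calr and Pdia3, and the transactivator Nlrc5. Each was found in the table of normalized counts by its Ensembl identifier. The libraries came from a mouse model of MLL-AF9 leukemia, an acute myeloid leukemia driven by a fusion of the MLL and AF9 genes. In all 6 libraries the donor cells carried the MLL-AF9 fusion (MA9), were CD45.2(+) and had the genotype Mx1-Cre Brd9fl/fl on a C57BL/6 background. BRD9 is a bromodomain subunit of a BAF chromatin remodelling complex. Its floxed alleles stay whole until Cre is made, and Cre is here driven by the Mx1 promoter, which responds to interferon. For each mouse, 1000 leukemia cells were transplanted into a CD45.1(+) CD45.2(-) recipient that had been irradiated with 2 doses of 450 cGy. From the next day the recipients received 3 injections of PBS (3 libraries) or of 20 mg/kg pIpC (3 libraries), every other day, and RNA was prepared from GFP+ bone marrow cells of femora and tibiae at 10 days after injection. The recipients were 6 weeks old. pIpC is a double-stranded RNA analogue that raises interferon in the animal, and no group received it without the floxed alleles and Cre. An effect of Brd9 deletion, of Cre and of pIpC itself therefore cannot be told apart in any comparison given here. Nothing stated that the libraries of a group came from separate mice, so the p-values measure the spread between these libraries, which may be technical.

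As background, proteasomes cut proteins in the cytosol, and the TAP transporter (a dimer of TAP1 and TAP2) carries the peptides into the endoplasmic reticulum (ER). There tapasin, calreticulin and the oxidoreductase PDIA3 hold an empty heavy chain bound to beta-2 microglobulin beside the transporter until a peptide fits, and ERAP1 trims peptides to length. Interferons raise most of these genes, and NLRC5 is recruited to the promoters of the heavy chains, B2m, Tap1 and Psmb9. The classical promoter also holds an enhancer with a kappaB core bound by NF-kappaB proteins and a nearby interferon response element, whereas calreticulin is among the genes governed by the ER stress response.

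The promoters of the genes that the results turn on are shown from RefSeq (build GRCm38.p6), each from 250 bases before to 50 bases after the start site. A window was present for 8 of the 10 genes. In the heavy chains H2-K1, H2-D1 and H2-Q7 (the heavy chain gene with the largest rise, below) the capitals mark the kappaB core GGGGATTCC. In B2m they mark the interferon-stimulated response element core GAAANNGAA, and in Calr the ER stress response element read on the opposite strand (CCAAT, any 9 bases, then CCACG). The windows are H2-K1 chr17:34000298-34000597 (minus strand), H2-D1 chr17:35262844-35263143 (plus), H2-Q7 chr17:35438905-35439204 (plus), B2m chr2:122147437-122147736 (plus) and Calr chr8:84846882-84847181 (minus).
H2-K1: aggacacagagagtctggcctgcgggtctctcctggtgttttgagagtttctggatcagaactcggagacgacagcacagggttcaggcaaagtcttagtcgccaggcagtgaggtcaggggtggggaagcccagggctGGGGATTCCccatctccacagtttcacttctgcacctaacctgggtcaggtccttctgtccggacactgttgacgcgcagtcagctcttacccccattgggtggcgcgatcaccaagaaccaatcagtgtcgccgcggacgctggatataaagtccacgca
H2-D1: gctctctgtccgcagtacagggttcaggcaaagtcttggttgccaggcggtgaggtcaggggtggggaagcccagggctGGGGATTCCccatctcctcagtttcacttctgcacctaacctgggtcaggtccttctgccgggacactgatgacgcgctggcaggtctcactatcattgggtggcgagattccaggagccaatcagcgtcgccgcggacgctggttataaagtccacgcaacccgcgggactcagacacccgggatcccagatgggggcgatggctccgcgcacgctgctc
H2-Q7: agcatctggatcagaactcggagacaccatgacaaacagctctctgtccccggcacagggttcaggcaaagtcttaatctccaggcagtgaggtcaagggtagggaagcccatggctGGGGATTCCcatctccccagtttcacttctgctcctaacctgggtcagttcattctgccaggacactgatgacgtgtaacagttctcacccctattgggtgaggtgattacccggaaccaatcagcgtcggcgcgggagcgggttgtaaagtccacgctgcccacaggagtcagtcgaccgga
B2m: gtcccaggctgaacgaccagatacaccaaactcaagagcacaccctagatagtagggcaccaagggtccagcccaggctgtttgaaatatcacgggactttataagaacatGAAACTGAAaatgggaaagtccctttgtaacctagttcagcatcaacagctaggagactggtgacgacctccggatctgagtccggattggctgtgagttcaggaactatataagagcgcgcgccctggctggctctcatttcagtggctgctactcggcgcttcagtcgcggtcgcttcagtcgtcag
Calr: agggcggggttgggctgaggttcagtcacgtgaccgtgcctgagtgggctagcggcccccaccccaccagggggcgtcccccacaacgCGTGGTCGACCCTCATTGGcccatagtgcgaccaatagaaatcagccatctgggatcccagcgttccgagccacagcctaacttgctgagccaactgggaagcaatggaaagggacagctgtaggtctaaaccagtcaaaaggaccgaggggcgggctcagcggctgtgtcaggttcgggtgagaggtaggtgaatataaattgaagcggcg

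All motifs were searched on both strands of 32841 promoter windows of the same length. The kappaB core stood in 0.25% of them, and in H2-K1, H2-D1, H2-Q6 and H2-Q7. Its first base lay at -111 from the start site in the window of H2-K1 shown, -171 in H2-D1 and -133 in H2-Q7. The interferon-stimulated response element core stood in 8.56% of windows. B2m held it at -139 to -131, and Erap1 held it at -9 to -1 and at -3 to 6, overlapping matches. Among the other heavy chain and immunoproteasome genes it stood in H2-T22, H2-T23 and Psme1. A search for these letters cannot find other forms of an interferon response element. A heavy chain window without a match may therefore still hold one. The ER stress response element stood in 0.119% of windows and, among the 8 genes with a window, in Calr alone, at -162 to -144. Its CCAAT end is also a match to the CCAAT box, which 37.4% of windows held. H2-K1, H2-D1, B2m, Tap1, Tapbp, Calr and Pdia3 each held a CCAAT box. The E-box CACGTG (7.15% of windows) stood in Erap1 and Calr, and the cAMP response element TGACGTCA (1.79%) in none of the 8 windows. A match describes letters in the window only.

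The libraries held 19277439 to 23586722 reads, recovered from the normalized counts. Among the PBS libraries, replicate 3 stood apart (mean chi-square per gene of 194 and 171 against the other PBS libraries, which gave 6.3 between themselves), and pIpC replicate 1 stood somewhat apart in its group (16.8 and 15.1, against 7.93). Brd9, the floxed gene, was listed at 1927, 1946 and 1632 normalized counts in PBS and at 2036, 2263 and 2011 in pIpC. It was not lower in the libraries labelled pIpC (log2 fold change 0.20, SE 0.126, limma adjusted p = 0.259, exact permutation p = 0.1, which is the smallest that 3 against 3 allows). Only the exons of the bromodomain are deleted and the count is of the whole gene, so it is a partial check of the labels. Directions below are given for the libraries labelled pIpC over those labelled PBS.

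Markers of several cell types moved with the label, beside every gene described below. The 11 neutrophil markers summed to 74063-149838 normalized counts in PBS and 2108232-2192082 in pIpC, with 10 of 11 higher. Higher too were 11 of 11 erythroid markers (sums of 23.4-38.5 and 5473-7645), 11 of 11 B cell markers (1783-3003 and 10605-40620), 8 of 8 dendritic cell markers tested (628-981 and 4646-6900), 8 of 9 T and NK cell markers tested (750-767 and 4123-4683, with Bcl11b lower), 9 of 11 macrophage markers (10356-14690 and 7035-9317, with Adgre1 and Vcam1, which made up most of the sum in PBS, lower) and 4 of 6 markers of stroma and endothelium (1309-2331 and 1811-2081). Slc4a1, Ms4a1 and Ccr7 were at 0 in every PBS library. Among 11 genes chosen as markers of the leukemia, 3 were higher and 4 lower (58782-70022 and 46460-50684). Hoxa9, which MLL fusions keep on, stood at 4917-5301 in PBS and 224-276 in pIpC. Hoxa10 stood at 1447-1693 and 12.3-21.3, and Meis1 at 3131-3890 and 206-239. These 3 and Cd33 were the 4 lower genes. Ptprc (log2 fold change 1.02), Itgam (1.45) and Cebpa (0.53) were the 3 higher, and Kit, Csf1r, Fcgr3 and Spi1 did not pass. The part of these cell type differences in the class I results was not tested, and fewer cells of a type and less RNA per cell cannot be told apart.

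Across all genes, 45.3% of the 15020 tested changed, 25.0% higher and 20.4% lower in pIpC (limma on log2 of the normalized count plus 1, adjusted p under 0.1). Quantile normalization gave 3244 higher and 4078 lower in place of 3750 and 3058. Of the 10 class I presentation genes 4 rose (H2-D1, B2m, Tap1 and Nlrc5), 2 fell (Tap2 and Calr) and 4 did not pass (H2-K1, Tapbp, Erap1 and Pdia3). All 10 passed the filter on low values. The groups did not overlap for 5 of the 10, against 56.8% of all genes tested. The number that rose ranged from 2 (without pIpC replicate 1) to 6 (without PBS replicate 3), and the number that fell was 0 without pIpC replicate 2 and 1 without pIpC replicate 3. The numbers over all 15020 genes moved too. Those higher were 2964 without pIpC replicate 1 and 5186 without PBS replicate 3, in place of 3750. Those lower were 1860 without pIpC replicate 2, 1908 without pIpC replicate 3 and 4597 without PBS replicate 3, in place of 3058. The calls thus stood in a contrast in which a large part of all genes changed. The median log2 fold change of the 10 genes was 0.45, against 0.015 over all genes tested. Rises and falls offset each other in the latter, and the median absolute log2 fold change over all genes tested was 0.567.

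**Figure D1:**
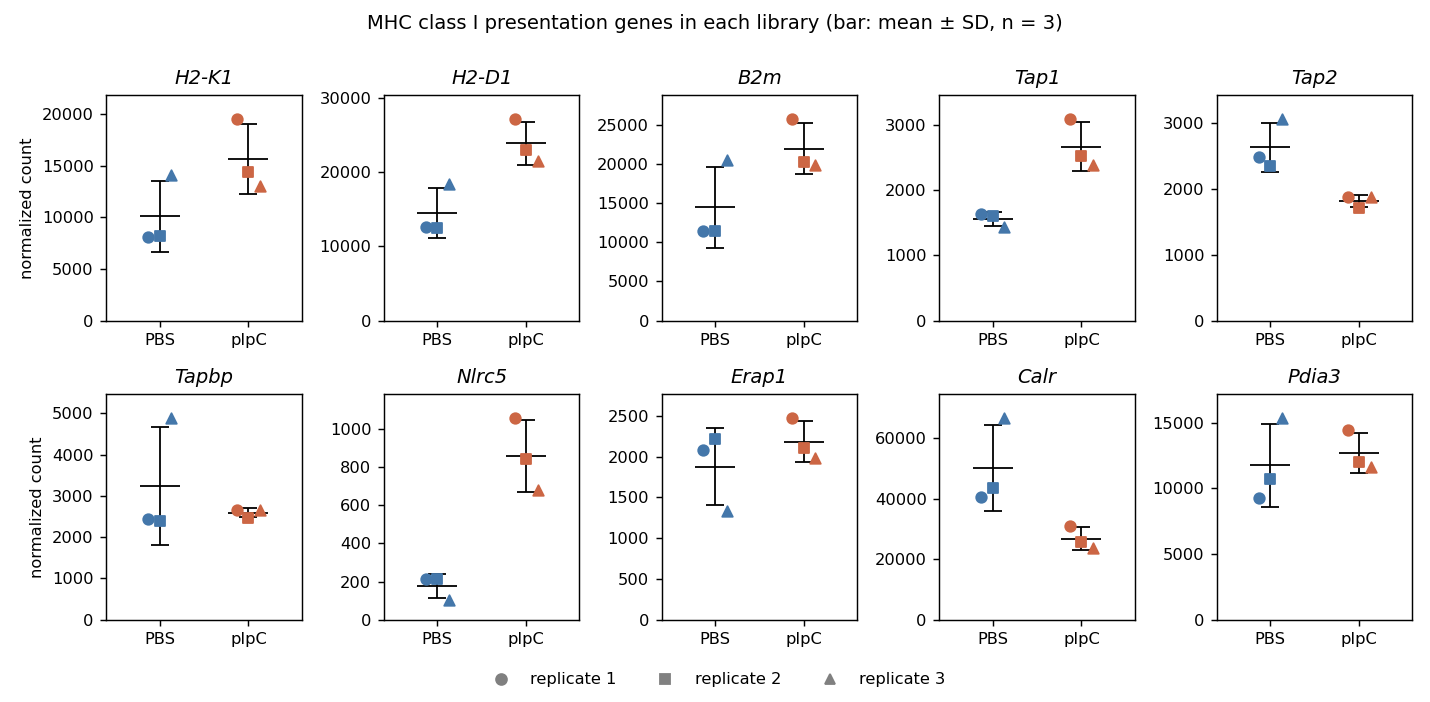
Normalized count (linear axis from 0) of each of the 10 genes in the 3 PBS (blue) and 3 pIpC (orange) libraries, with the marker shape giving the replicate and the black bars the mean ± SD. H2-D1, Tap1 and Nlrc5 were higher in every pIpC library than in any PBS library, Tap2 and Calr were lower, and PBS replicate 3 lay above pIpC replicate 3 for H2-K1.

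The heavy chains and their light chain were abundant and stood higher in pIpC in most pairs of libraries. H2-D1 (ENSMUSG00000073411, chr17:35262730-35267499), a classical heavy chain, was read at 12610, 12459 and 18377 normalized counts in PBS and 27118, 22991 and 21488 in pIpC. The lowest pIpC library thus lay above the highest PBS library, PBS replicate 3. H2-D1 rose by 0.74 on the log2 scale (SE 0.205, limma adjusted p = 0.0301), from 14482 ± 3374 to 23866 ± 2915 (SD, n = 3 each). Without pIpC replicate 1 the log2 fold change was 0.64 and missed the threshold (limma adjusted p = 0.115).

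H2-K1 (ENSMUSG00000061232, chr17:33996017-34000347), the other classical heavy chain, was read at 8053, 8210 and 14072 in PBS and at 19477, 14402 and 13018 in pIpC. Here the groups overlapped, since PBS replicate 3 lay above pIpC replicate 3. Its log2 fold change of 0.66 (SE 0.27) missed the threshold (limma adjusted p = 0.102). Without PBS replicate 3 the log2 fold change was 0.92 and passed (limma adjusted p = 0.000654). H2-K1 passed in 7 of 22 analysis settings, of which 1 summed the heavy chains as a single feature. Among the 7 were settings added after seeing the data. These removed the transcript length trend, or left out both PBS replicate 3 and pIpC replicate 1.

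B2m (ENSMUSG00000060802, chr2:122147686-122153083) encodes beta-2 microglobulin, the light chain shared by all class I molecules. It was read at 11444, 11480 and 20455 in PBS and at 25704, 20227 and 19897 in pIpC, so that PBS replicate 3 lay among the pIpC libraries. Its log2 fold change of 0.65 (SE 0.264) passed by a small margin (limma adjusted p = 0.0998). Its adjusted p lay under 0.1 in 8 of 21 settings, with the log2 fold change between 0.51 and 1.05. Without PBS replicate 3 it was 0.93 (limma adjusted p = 0.000116).

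The proportions of H2-K1, H2-D1 and B2m within each library lay close together in the groups. The count ratio of H2-K1 over B2m was 0.704, 0.715 and 0.688 in PBS and 0.758, 0.712 and 0.654 in pIpC, a difference of 0.01 on the log2 scale (exact permutation p = 0.9, n = 3 each). H2-D1 over B2m gave 1.102, 1.085 and 0.898 against 1.055, 1.137 and 1.08, a difference of 0.09 (exact permutation p = 0.6). For H2-K1 over H2-D1 the difference was -0.08 (exact permutation p = 0.5). In none of these 3 ratios were the groups apart. A ratio within a library does not depend on its size factor, and the test does not show that the ratios were equal. Among 10486 genes with a mean of at least 100 normalized counts, B2m had the profile over the 6 libraries nearest to that of H2-K1 (root mean square distance 0.064 on the centred log2 scale). Aldh7a1 (0.078), Gm14410 (0.097), H2-D1 (0.117) and Mpp6 (0.132) came next.

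On a scale per length (normalized counts per kilobase of transcript, 14977 genes ranked by group means), B2m moved from rank 125 in PBS to rank 44 in pIpC. H2-D1 moved from 221 to 141 and H2-K1 from 238 to 167. Calr went the other way, from 98 to 129. Nlrc5 was the lowest of the 10, at 11651 in PBS and 8414 in pIpC. These ranks have no test.

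The transporter subunits moved in opposite directions, although Tap1 and Tap2 lie close together on chromosome 17, with Psmb8 between them. Tap1 (ENSMUSG00000037321, chr17:34187553-34197225) was read at 1637, 1596 and 1440 in PBS and at 3085, 2525 and 2387 in pIpC, every pIpC library being above every PBS library. It rose by 0.77 on the log2 scale (SE 0.14, limma adjusted p = 0.00559) and passed in all 21 settings, between 0.60 and 0.84. Exons of Tap1 and Psmb9 overlap on opposite strands over 212 bases, and reads there cannot be told apart in unstranded libraries.

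Tap2 (ENSMUSG00000024339, chr17:34203527-34216321) was read at 2489, 2349 and 3062 in PBS and at 1873, 1713 and 1877 in pIpC, all of the latter being lower. It fell by 0.52 on the log2 scale (SE 0.139, limma adjusted p = 0.0256) and passed in 20 of 21 settings, the exception being the fit without pIpC replicate 2 (limma adjusted p = 0.112). Of its 3781 exonic bases 698 overlap Gm15821 or Gm20496, which may take reads from it. The ratio of Tap1 over Tap2 was 0.658, 0.679 and 0.47 in PBS and 1.647, 1.473 and 1.272 in pIpC. The groups were apart by 1.29 on the log2 scale, with the exact permutation p at its smallest value of 0.1 (0.18 after Benjamini-Hochberg adjustment over 9 ratios).

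Tapbp (ENSMUSG00000024308, chr17:33915899-33929292), which encodes tapasin, the bridge between TAP and the heavy chain, was read at 2440, 2393 and 4874 in PBS and 2649, 2473 and 2663 in pIpC. PBS replicate 3 lay above all other libraries and the remaining 5 lay close together. Its log2 fold change was -0.24 (SE 0.28, limma adjusted p = 0.539), and without PBS replicate 3 it turned to 0.10 (limma adjusted p = 0.208). Tapbp over Tap1 was 1.49, 1.499 and 3.386 in PBS and 0.859, 0.979 and 1.116 in pIpC, a difference of -1.0 on the log2 scale (exact permutation p = 0.1, adjusted 0.18).

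**Figure D2:**
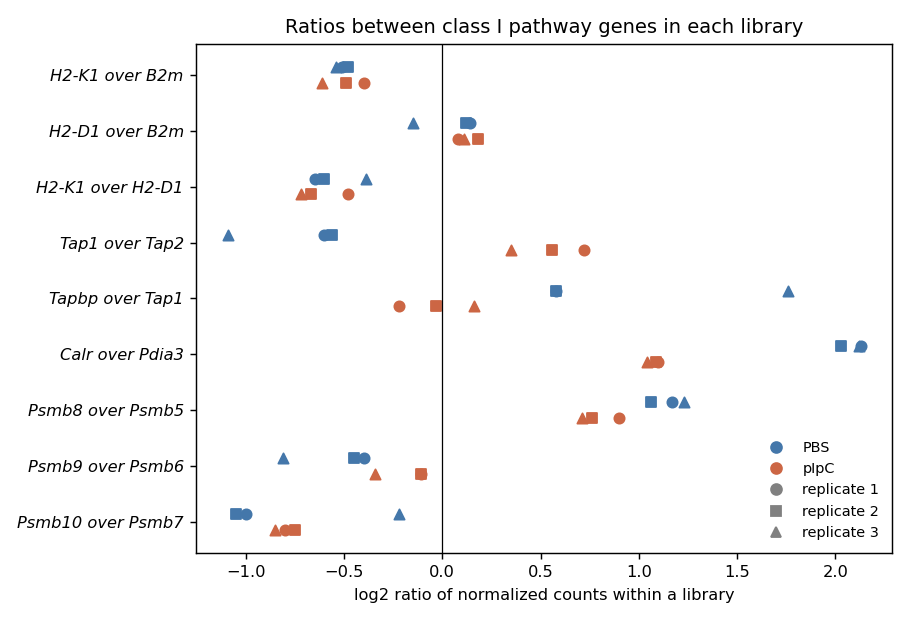
Log2 ratio of normalized counts of 9 gene pairs within each library, PBS in blue and pIpC in orange, with the marker shape giving the replicate. The Tap1 over Tap2 ratio was below 0 in the 3 PBS libraries and above 0 in the 3 pIpC libraries, and the Calr over Pdia3 ratio stood near 2.09 in PBS and 1.08 in pIpC.

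Erap1 (ENSMUSG00000021583, chr13:74639568-74693201), the trimming peptidase of the ER, was read at 2079, 2219 and 1339 in PBS and at 2469, 2109 and 1979 in pIpC. The groups overlapped, and PBS replicate 3 was the lowest library. The log2 fold change of 0.25 (SE 0.216) missed the threshold (limma adjusted p = 0.405) and none of 21 settings called it. Its exons overlap those of Cast over 834 of 7280 bases.

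Calr and Pdia3, partners in the loading complex and in the folding of glycoproteins, gave different ratios in the groups. Calr (ENSMUSG00000003814, chr8:84841850-84846934), the lectin chaperone calreticulin, was read at 40519, 43620 and 66561 in PBS and at 31009, 25620 and 23844 in pIpC. No pIpC library reached the lowest PBS library. Calr fell by 0.88 on the log2 scale (SE 0.242, limma adjusted p = 0.0292), from 50233 ± 14225 to 26824 ± 3731 (SD, n = 3 each). It missed the threshold without pIpC replicate 2 (-0.85, limma adjusted p = 0.118) and without pIpC replicate 3 (-0.80, limma adjusted p = 0.126).

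Pdia3 (ENSMUSG00000027248, chr2:121413775-121438687), also called ERp57, was read at 9288, 10690 and 15340 in PBS and 14459, 12022 and 11622 in pIpC, with PBS replicate 3 again the highest. Its log2 fold change was 0.14 (SE 0.216, limma adjusted p = 0.648). Without PBS replicate 3 it passed at 0.34 (limma adjusted p = 0.0209), and without PBS replicate 1 it was -0.019 (limma adjusted p = 0.953). The ratio of Calr over Pdia3 held to a narrow range in each group, 4.362, 4.081 and 4.339 in PBS and 2.145, 2.131 and 2.052 in pIpC. That is a difference of -1.01 on the log2 scale, with group SDs of 0.05 and 0.03 (exact permutation p = 0.1, adjusted 0.18). PBS replicate 3, which stood apart in the count of each gene, did not stand apart in this ratio.

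Nlrc5 (ENSMUSG00000074151, chr8:94434356-94527272), the transactivator of class I genes, had the largest fold change of the 10. It was read at 212, 212 and 105 in PBS and at 1053, 843 and 677 in pIpC, and every pIpC library lay above every PBS library. Nlrc5 rose by 2.32 on the log2 scale (SE 0.319, limma adjusted p = 0.00159), 4.87-fold between the group means. It passed in all 21 settings, between 1.83 and 2.49. The genes with the profile nearest to that of Nlrc5 were Tnks1bp1 (distance 0.14), Clec4b2 (0.159), Met (0.178), Nedd4 (0.192) and Msi2 (0.193), none of them a class I gene.

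**Figure D3:**
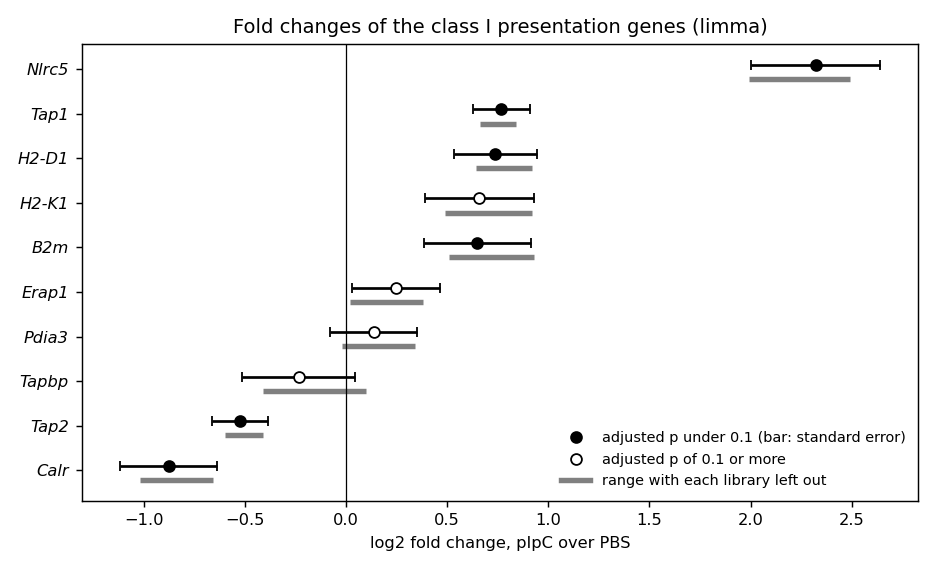
Log2 fold change of the 10 genes, pIpC over PBS, with the standard error of the limma fit (black bars), filled circles for adjusted p under 0.1 and grey bars for the range when each library was left out in turn. Nlrc5 stood at 2.32 and Calr at -0.88, and the ranges of Tapbp and Pdia3 crossed 0.

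Among 16 further heavy chain genes, 10 were tested, of which 5 rose, none fell and 5 did not pass. Of all genes tested 25.0% rose and 20.4% fell. The Q region genes carried the largest changes. H2-Q7, which encodes a nonclassical chain of the Qa-2 antigen, was read at 69.2, 99.2 and 72.4 in PBS and at 5107, 2689 and 1979 in pIpC, and rose by 5.23 on the log2 scale (SE 0.354, limma adjusted p = 8.26e-05). H2-Q6, its neighbour, was read at 54.5, 72.9 and 75.8 and at 2981, 1441 and 1242, and rose by 4.68. In both genes pIpC replicate 1 was the highest, and every pIpC library lay far above every PBS library. H2-Q6 and H2-Q7 share 13.0% and 21.9% of their transcripts in identical stretches of 100 bases, mainly with each other, so their split is uncertain.

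The other chains that rose were H2-Q10 (4.20), H2-Q4 (1.74) and H2-M3 (0.90, SE 0.204, limma adjusted p = 0.0138), the last of which presents formylated peptides. H2-T23, which encodes Qa-1 and is seen by inhibitory receptors of NK cells, was read at 1928, 1798 and 3517 in PBS and 2590, 2170 and 2267 in pIpC. Its log2 fold change was 0.02 (limma adjusted p = 0.956) and changed sign with the scaling, down to -0.10 under quantile normalization. Without PBS replicate 3 it was 0.33 and passed as higher (limma adjusted p = 0.0107). The remaining 6 genes were at most a few reads in any library and were not tested, with H2-Q2, H2-T3, H2-M2, H2-M5 and H2-M9 at 0 in every PBS library.

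H2-Q6 and H2-Q7 together made up 0.495%, 0.694% and 0.384% of all heavy chain counts in PBS and 13.0%, 8.71% and 7.40% in pIpC. H2-K1 and H2-D1 together made up 82.6%, 83.3% and 84.0% in PBS and 74.9%, 78.9% and 79.2% in pIpC. H2-T23 went from 7.25-9.10% to 4.16-5.20%. The classical pair thus held the larger part of the heavy chain counts in every library, with a smaller share in each pIpC library. When the heavy chains were summed as a single feature their log2 fold change was 0.81 (limma adjusted p = 0.0442). Markers of neutrophils, B cells, dendritic cells and other cell types rose in the same libraries. The part of any of these cell types in the heavy chain shares was not tested.

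**Figure D4:**
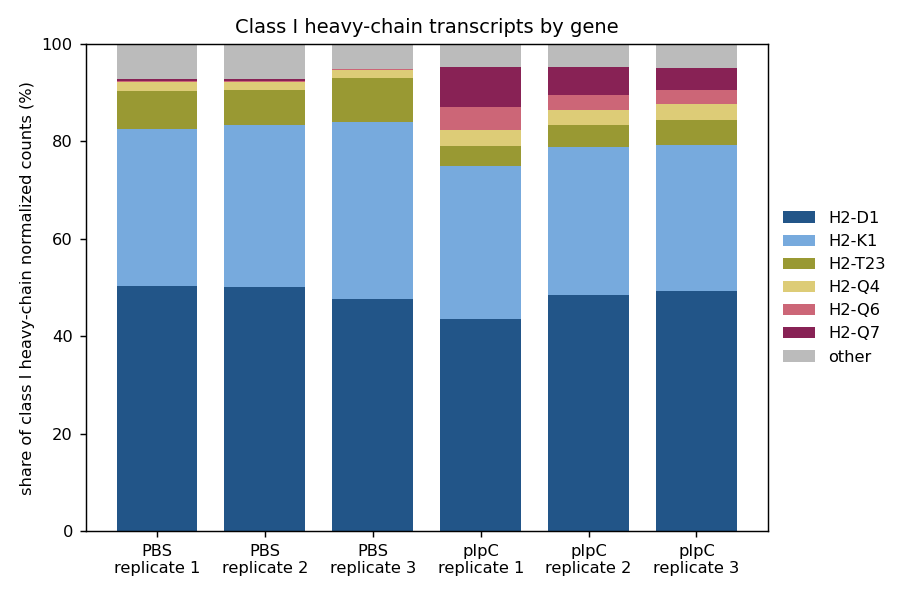
Share (%) of the summed normalized counts of 18 class I heavy chain genes taken by each gene in each library, stacked to 100%. H2-Q6 and H2-Q7 (red and purple) were under 1% in PBS and took 7.40% to 13.0% in pIpC, while H2-D1 and H2-K1 (blue) took at least 82.6% in PBS and at most 79.2% in pIpC.

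Proteasomes feed the pathway with peptides, and the immunoproteasome is the form that interferon raises. None of the 5 immunoproteasome genes passed (limma, and edgeR and DESeq2 on the recovered reads), with 0 at an unadjusted p under 0.05 and a median log2 fold change of 0.03. In limma 45.3% of all genes tested passed. PBS replicate 3 was the highest library for all 5. Psmb8, the catalytic subunit LMP7, was read at 2398, 2418 and 5936 in PBS and at 2722, 1922 and 2022 in pIpC (log2 fold change -0.57, limma adjusted p = 0.269). Psmb9, which shares its promoter region with Tap1, was read at 1116, 1213 and 2011 and at 1955, 1618 and 1572 (0.29, limma adjusted p = 0.38). Psmb10 was read at 687, 708 and 2113 and at 977, 764 and 724, with a log2 fold change of -0.31 that turned to 0.22 without PBS replicate 3. Without that library 3 of the 5 (Psmb9, Psme1 and Psme2) passed as higher.

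Of the 4 constitutive proteasome counterparts none passed either, with 0 at an unadjusted p under 0.05 in limma, edgeR and DESeq2, and 1 (Psmb6) passed without PBS replicate 3. Within libraries, Psmb8 over Psmb5 was lower in pIpC by 0.36 on the log2 scale and Psmb9 over Psmb6 was higher by 0.36, each with groups apart and the exact permutation p at 0.1 (adjusted 0.18). Psmb10 over Psmb7 differed by -0.04 (exact permutation p = 1.0). Among 7 cytosolic and vesicular peptidases, 2 rose (Npepps by 0.92 and Lnpep by 0.88) and 2 fell (Thop1 by 0.91 and Lap3 by 0.76 on the log2 scale). The adjusted p of Lnpep lay under 0.1 in only 10 of 21 settings. Over all genes tested 45.3% changed. Lap3 missed the threshold without pIpC replicate 2 (limma adjusted p = 0.112) and without pIpC replicate 3 (limma adjusted p = 0.113). NPEPPS and LNPEP are aminopeptidases, THOP1 destroys peptides in the cytosol and LAP3 is a leucine aminopeptidase.

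Among 23 genes of ER folding and quality control, 3 rose, none fell and 20 did not pass (median log2 fold change 0.05). Of all genes tested 45.3% changed. Ero1l was read at 3294, 3434 and 2311 in PBS and 7605, 7602 and 7399 in pIpC, and rose by 1.34 (SE 0.174, limma adjusted p = 0.00123). Ero1l and Ero1lb (0.74) are oxidases that recharge disulfide isomerases, and Uggt1 (0.78) senses misfolded glycoproteins. Canx, the membrane-bound relative of calreticulin, had a log2 fold change of -0.18 (limma adjusted p = 0.362). Tapbpl, the tapasin-related peptide editor TAPBPR, had 0.30 (limma adjusted p = 0.132), and Hspa5, the ER chaperone BiP, had -0.29 (limma adjusted p = 0.378). With PBS replicate 3 left out the list gave 7 higher and 2 lower, Canx among the latter (-0.23, limma adjusted p = 0.0555), and without PBS replicate 1 it also gave 2 lower.

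Among 25 regulators of class I transcription, 9 rose, 1 fell and 15 did not pass (median log2 fold change 0.17). Over all genes tested 25.0% rose and 20.4% fell, so these counts do not set the regulators apart. Without PBS replicate 3 the number lower was 7. Irf1, a direct activator of class I promoters, was read at 620, 690 and 835 in PBS and at 1381, 1217 and 1130 in pIpC, and rose by 0.80 (SE 0.158, limma adjusted p = 0.00765). Irf2 rose by 1.01. Ciita, the class II transactivator and a relative of Nlrc5, was read at 3.46, 2.02 and 0 in PBS (at most 4 reads a library) and at 158.7, 126.7 and 93.8 in pIpC. Its fitted log2 fold change of 5.71 depended on the pseudocount and lay between 3.51 and 7.08 over the settings.

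Ifngr1, the ligand-binding chain of the interferon-gamma receptor, fell by 0.68 on the log2 scale. Rfx5, a subunit of the factor that recruits NLRC5, had 0.13 (limma adjusted p = 0.822), and without PBS replicate 3 it was -0.37 and passed as lower (limma adjusted p = 0.0137).

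Of 16 interferon-stimulated genes, 8 rose, 1 fell and 7 did not pass (median log2 fold change 1.11). The groups did not overlap for 9 of the 16, against 56.8% of all genes tested. The median lay between Ifit3 (1.10, not passed) and Ifit2 (1.13). Ifit3 was read at 16.4, 17.2 and 22.6 in PBS and 124.8, 16.3 and 32.9 in pIpC. For Ifit1 the reads were 28.6, 21.3 and 29.4 and 182.6, 38.8 and 25.1. Ifit1 and Ifit3 were thus raised mainly in pIpC replicate 1. The 8 genes that rose were higher in every pIpC library than in any PBS library. Ifit2, 1 of the 8, was read at 547.7, 508.1 and 306.7 in PBS and at 1046, 920.5 and 931.2 in pIpC. Iigp1 (4.19, from at most 4 reads a library in PBS) and Oasl2 (3.69) rose most, and Oas1a fell by 1.34 on the log2 scale (limma adjusted p = 0.0665). Oas1a missed the threshold without pIpC replicate 2 (limma adjusted p = 0.167) and without pIpC replicate 3 (-0.95, limma adjusted p = 0.191), which left 0 lower. Oasl2 was read at 32.9, 30.4 and 22.6 in PBS and at 744.6, 318.8 and 226.3 in pIpC. pIpC replicate 1 was the highest pIpC library for it and also for H2-K1, H2-D1, B2m, Tap1, Nlrc5, Erap1, Calr and Pdia3. With both PBS replicate 3 and pIpC replicate 1 left out, a choice made after seeing the data, H2-K1 had a log2 fold change of 0.75 (limma adjusted p = 3.2e-05).

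Class I-like molecules and ligands of the activating receptor NKG2D split in direction, with 3 higher, 3 lower and 1 that did not pass among 7 tested of 12. All genes tested gave 25.0% higher and 20.4% lower. Mr1 (1.96), which presents vitamin metabolites, Fcgrt (1.92), the neonatal Fc receptor, and Hfe (1.92), a regulator of iron uptake, rose. Fcgrt was read at 57.1, 48.6 and 81.5 in PBS and at 233.5, 218.6 and 250.5 in pIpC, with no overlap. The lipid-presenting Cd1d1 fell by 1.15 and Cd1d2 by 1.45 on the log2 scale, and the NKG2D ligand Raet1e, from 15.8-41.5 to 2.04-6.99 normalized counts, fell by 2.34. The proteins of Mr1, Fcgrt, Hfe and Cd1d1 all pair with beta-2 microglobulin.

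Among 7 tested genes of class I export and turnover, 2 rose, 1 fell and 4 did not pass, where 45.3% of all genes tested changed. Tmem127 (1.15) and Susd6 (1.05, limma adjusted p = 0.0621) rose. Susd6 missed the threshold when any single pIpC library was left out (limma adjusted p = 0.148, 0.165 and 0.155), which left 1 higher, and 4 were higher without PBS replicate 3. Their products act together with the ubiquitin ligase WWP2 to send class I molecules for degradation, and Wwp2 itself had a log2 fold change of 0.17 (limma adjusted p = 0.254). Tmem127 was read at 1206, 1187 and 996 in PBS and at 2367, 2557 and 2556 in pIpC, with no overlap. Bcap29, a relative of the class I export receptor BAP31, fell by 0.60 on the log2 scale. Bcap31, which encodes BAP31 itself, did not pass (-0.19, limma adjusted p = 0.544).

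**Figure D5:**
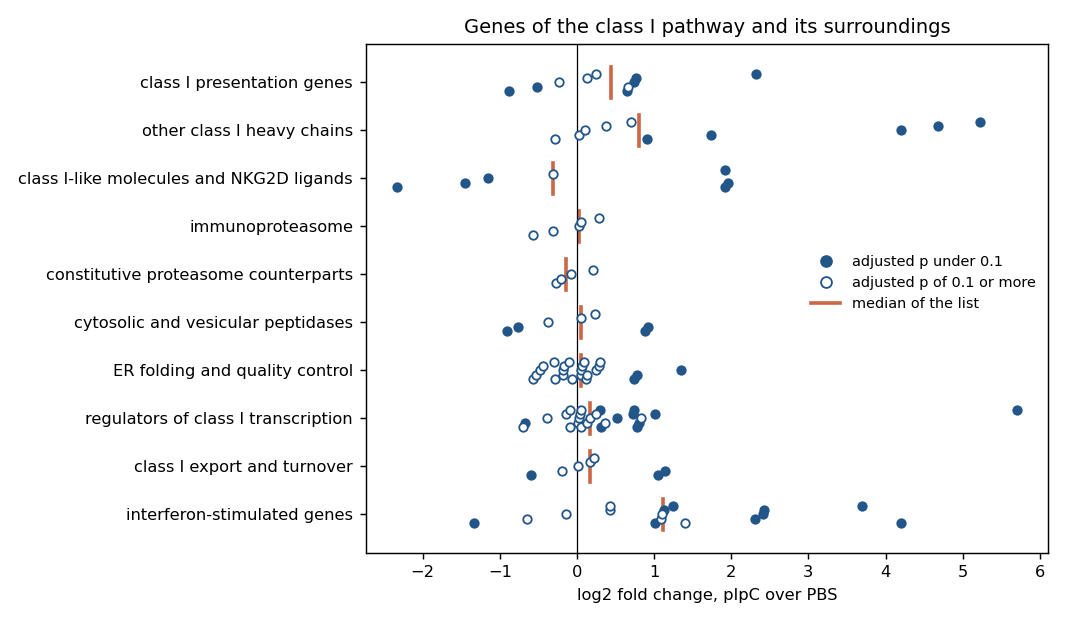
Log2 fold change, pIpC over PBS, of each tested gene in the class I presentation set and 9 related lists, filled for limma adjusted p under 0.1, with the median of each list as an orange line. The heavy chain list reached 5.23 at H2-Q7, while the 5 immunoproteasome genes lay between -0.57 and 0.29 with none filled.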

How the data were processed

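Poly(A)-selected RNA was sequenced from 6 samples, 3 per group. The deposited table held a normalized signal per gene, made by the authors by dividing read counts by a size factor for each sample. The submitters' processing notes name GRCm38, HISAT2 2.2.1, SAMtools, featureCounts (Subread) and edgeR, and unstranded libraries of GFP+ cells, whereas the study's methods describe another pipeline, c-Kit+ cells and sublethal irradiation, so the route to the table is uncertain. No per-sample column was left unmapped (0). Whole reads were recovered in every library (100% of values whole), giving 19277439 to 23586722 reads.

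Genes with a mean of at least 10 normalized counts were tested in limma 3.58.1 (R 4.3.3), whose variance prior followed mean expression, after adding 1 and taking log2, and Benjamini-Hochberg adjusted p under 0.1 was used, over all 15020 genes. Fold changes are on this scale, which understates those of low genes. edgeR 4.0.16 (TMM and relative log expression factors) and DESeq2 1.42.0 were run on the recovered reads, and scripts were tested on simulated data. Other alternatives were pseudocounts of 0.1 and 10, a low-value filter removed or raised to 50, quantile and median-centred scaling, a replicate block, no intensity trend, an adjusted p under 0.05, and each library left out. Counts of settings also include the main fit and those added after seeing the data. The added settings removed the transcript length trend, or left out both PBS replicate 3 and pIpC replicate 1. Ratios were compared by 2-sided exact permutation tests. Genes were matched by symbol from the annotation (55141 of 55487 genes). The genes and lists were chosen with earlier results of these data known. Named genes were the 10 genes, Brd9, 12 related genes, the 2 largest rises and falls in each list, and the 5 nearest profiles. Some further genes of the lists are given beside them. H2-T9 was not matched, and a few genes are not reported here.

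Replicate numbers did not pair samples (correlations of deviations of -0.117, 0.143 and 0.041).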

Additional observations from a re-analysis of the deposited data

How the results depend on the processing

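The number of the 10 class I presentation genes that rose was 4 and ranged from 2 (without pIpC replicate 1) to 6 (without PBS replicate 3) as each library was left out, and the number that fell was 2 and ranged from 0 (without pIpC replicate 2) to 2, with 1 without pIpC replicate 3. Over all genes the number lower was 3058 and ranged from 1860 (without pIpC replicate 2, and 1908 without pIpC replicate 3) to 4597 (without PBS replicate 3), and was 4656 with PBS replicate 3 and pIpC replicate 1 both left out. The number higher over all genes was 3750 and ranged from 2790 (without pIpC replicate 2) to 5186 (without PBS replicate 3). Sign changes were seen in genes that did not pass. Tapbp turned to 0.10 without PBS replicate 3 (range over single libraries left out -0.41 to 0.10) and 0.087 without both libraries. Erap1 turned to -0.052 with the transcript length trend removed (added after seeing the data) and -0.072 without both libraries. Pdia3 turned to -0.019 without PBS replicate 1 (up to 0.34). H2-T23 turned to -0.10 (quantile), -0.016 (median-centred), -0.06 (edgeR, TMM) and -0.046 (relative log expression factors and DESeq2), and when single libraries were left out lay between -0.16 and 0.33. Psmb10 turned to 0.22 without PBS replicate 3 (from as low as -0.59) and 0.094 without both. Rfx5 turned to -0.37 (up to 0.41) and -0.32, to -0.057 with the length trend removed, and to -0.033 (edgeR, TMM) and -0.02 (relative log expression factors and DESeq2). The cause of these moves was not tested. Replicate numbers were shared by the groups but did not pair them; with the replicate block the adjusted p of B2m was 0.141 in place of 0.0998, with the same log2 fold change of 0.65. Of 202 comparisons of the 10 genes with an alternative, 170 kept direction and side of the threshold, 18 lost and 9 gained a call and 5 changed sign. Quantile scaling moved the median of all genes to -0.12. At 3 samples a group the exact tests could not go below 0.1.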
